A study of Mus musculus with 6 samples.

Results

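Integrins are the receptors with which cells hold on to the extracellular matrix, and focal adhesion adaptors are the proteins that tie the inner tails of integrins to actin. The 39 genes described here are 20 integrin subunits, of which 12 are α and 8 are β subunits, and 19 adaptors, taken by their symbols from the 54331 genes of the expression table. All 39 symbols were found, each on 1 row, and the integrin subunits were described apart from the adaptors.

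The study asked how AKT activity affects the conversion of fibroblasts into induced pluripotent stem cells. The cells were male mouse embryonic fibroblasts (MEFs) of an Oct4-EGFP transgenic line on a mixed C57BL/6, DBA/2 and ICR background, taken at E13.5 from several embryos whose cells were mixed. Both groups carried the reprogramming factors OCT4, SOX2 and KLF4 (OSK) together with AKT-MER, an AKT fused to a modified estrogen receptor, so the control cells carried every transgene too. From day 3 after transduction (3 dpi), 3 wells received 4-hydroxytamoxifen (4OHT), which switches the fusion protein on (OSKA + 4OHT group), and 3 wells received ethanol (OSKA − 4OHT group). RNA was taken at 10 dpi, with no sort of the cells stated for these libraries. Wells with 4OHT but without AKT-MER were not among these 6 libraries, so an effect of 4OHT itself and that of AKT cannot be told apart in them. The paper compared OSK cells with and without 4OHT by microarray at an earlier day and describes the effects of 4OHT as limited. Those arrays were not examined here. By the paper's methods, transduced cells were replated into the wells of a plate at 3 dpi, when 4OHT or ethanol was added. No source says that the wells came from separate embryos or transductions, so the p-values measure the spread between wells, which may be technical.

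An integrin is a pair of 1 α and 1 β subunit, and the pair sets which matrix protein is bound: collagens, laminins, or proteins with an RGD motif such as fibronectin and vitronectin. Talin and kindlin bind the β tail and bring the receptor into its active form. Vinculin, α-actinin and filamin connect the site to actin filaments, a complex of ILK, PINCH and parvin forms a parallel bridge, FAK, SRC, paxillin and p130CAS send signals from it, and zyxin and VASP gather where actin is assembled under tension. Spread fibroblasts are rich in large focal adhesions, and cells turning into pluripotent stem cells lose this flat shape and form tight epithelial colonies.

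Expression was measured as TPM (transcripts per 1000000), a level scaled to transcript length, so that levels of different genes can be set side by side. Each well adds up to 1000000 TPM, which leaves the sequencing depth unknown. Between 15814 and 18230 genes were above 0 in a well, and across genes the wells of a group correlated at r = 0.809 to 0.864 and wells of different groups at r = 0.792 to 0.833, ranges that overlap. The groups were compared by limma-trend, fitted to log2(TPM + 0.5), in the 15382 genes whose mean reached 1 TPM, and fold changes are on that log2 scale, which makes the change of a low gene look smaller. Here a gene rose or fell when its p-value, adjusted by the Benjamini-Hochberg method over all tested genes, was under 0.05. The whole table was shifted slightly upward, with 0.144 as the median of its log2 fold changes.

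The MEF label was checked against 7 fibroblast markers. All were detected in both groups and added up to 2708–3407 TPM in OSKA − 4OHT wells and 2061–2335 TPM in OSKA + 4OHT wells. Most of this sum was *Col1a1* (751–1102 and 548–643 TPM) and *Col1a2* (1480–1759 and 733–1038 TPM), of which *Col1a2* fell. *Thy1* (133.0–207.6 and 221.7–389.5 TPM), *Dcn* (127–155 and 168–198 TPM) and *Lum* (6.30–9.12 and 36.7–41.1 TPM) were higher in every OSKA + 4OHT well, and of these *Lum* rose by the test explained above. The list thus did not move in 1 direction. The sum of 6 pluripotency markers was 2.87–3.69 TPM without 4OHT and 35.9–52.3 TPM with it, and the sum of 6 epithelial markers was 31.9–85.3 TPM and 153–160.4 TPM. Of the pluripotency markers 4 rose, and of the epithelial markers *Epcam*, *Cdh1* and *Krt8* rose, against 3.52% of all tested genes. Among those 4, *Nanog*, *Zfp42* and *Dppa5a* reached the mean of 1 TPM needed for the test only through the OSKA + 4OHT wells. Their means without 4OHT were 0.247, 0.530 and 0 TPM. These sums moved with the treatment, and in whole wells fewer cells of a type and less RNA per cell cannot be told apart. Their part in the changes of the adhesion genes was not tested.

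Of the 35 adhesion genes that reached the level needed for the test, 8 fell in the OSKA + 4OHT group and 0 rose by limma-trend, while 27 did not pass the test. Most of the genes that fell were adaptors. Of the 19 adaptors 6 were lower (31.6%), namely *Zyx*, *Vcl*, *Flna*, *Actn1*, *Tln1* and *Parva*, and of the 16 tested integrin subunits 2 were lower (12.5%), *Itgav* and *Itgb1*. Among all tested genes 5.49% changed by the same rule, 1.97% being lower and 3.52% higher. These are 303 and 542 genes, a balance that depends on the scaling, since median-ratio scaling gave 502 lower and 440 higher and quantile normalization 434 and 428. At an unadjusted p under 0.05, 7 adaptors were lower and 0 higher, and 6 of the 16 integrin subunits were lower and 3 higher, while 1105 of the 15382 tested genes were lower and 2176 higher at that level. *Itga11* is among these 6 subunits, though it reached the level needed for the test only through the OSKA − 4OHT wells. The median log2 fold change was -0.455 over the adaptors and -0.276 over the integrin subunits, on a scale where all tested genes had 0.144. A fall of more than 2-fold was met by *Zyx* and *Vcl*, 2 of the 35 genes, against 1.37% of all tested genes.

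**Figure D1:**
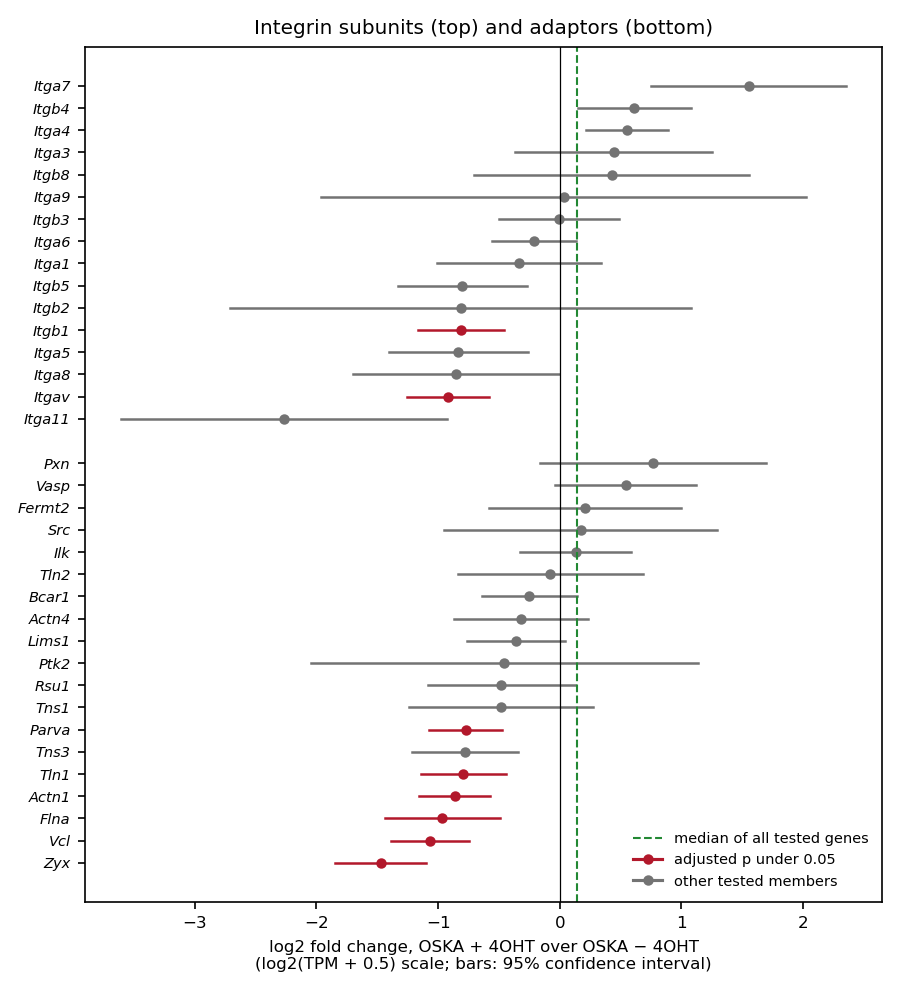
Log2 fold change (OSKA + 4OHT over OSKA − 4OHT, from log2(TPM + 0.5)) of the 35 tested genes, integrin subunits above and adaptors below, with bars for the 95% confidence interval of limma-trend and a dashed line at the median of all tested genes. The 8 genes with an adjusted p under 0.05 are red and all lie left of 0, from *Parva* at -0.77 to *Zyx* at -1.47.

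The regulatory sequence in front of the genes that fell together is shown for 4 of them: *Zyx* and *Vcl*, the adaptors with the largest falls, *Flna*, the adaptor with the highest level without 4OHT, and *Itgb1*, the integrin with the highest level. The windows run from 250 bases before the RefSeq start of the gene to 50 bases after it, on GRCm38.p6, in the reading direction of the gene. They were searched on both strands for the CArG box, the site bound by serum response factor (SRF), and for GGAATG, the core bound by TEAD factors, which reads CATTCC on the other strand. Both factors are known regulators of cytoskeletal genes. Capitals mark a match.
Zyx: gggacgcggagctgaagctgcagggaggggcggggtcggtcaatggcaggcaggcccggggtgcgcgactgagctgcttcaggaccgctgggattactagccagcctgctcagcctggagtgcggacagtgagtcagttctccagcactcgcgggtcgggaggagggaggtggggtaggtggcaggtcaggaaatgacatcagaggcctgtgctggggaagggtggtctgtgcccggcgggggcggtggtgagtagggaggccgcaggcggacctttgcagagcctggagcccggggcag
Vcl: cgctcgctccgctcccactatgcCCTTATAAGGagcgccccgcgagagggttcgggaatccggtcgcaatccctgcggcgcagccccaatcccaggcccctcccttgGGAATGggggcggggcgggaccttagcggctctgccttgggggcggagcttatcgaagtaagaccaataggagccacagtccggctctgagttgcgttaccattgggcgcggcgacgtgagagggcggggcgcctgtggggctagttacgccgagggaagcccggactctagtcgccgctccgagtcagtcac
Flna: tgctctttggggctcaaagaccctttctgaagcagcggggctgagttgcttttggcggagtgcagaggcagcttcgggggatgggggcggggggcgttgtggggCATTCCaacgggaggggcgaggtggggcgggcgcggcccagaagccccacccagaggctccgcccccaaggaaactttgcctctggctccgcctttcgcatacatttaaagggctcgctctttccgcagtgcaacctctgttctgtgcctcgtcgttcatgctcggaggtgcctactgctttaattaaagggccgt
Itgb1: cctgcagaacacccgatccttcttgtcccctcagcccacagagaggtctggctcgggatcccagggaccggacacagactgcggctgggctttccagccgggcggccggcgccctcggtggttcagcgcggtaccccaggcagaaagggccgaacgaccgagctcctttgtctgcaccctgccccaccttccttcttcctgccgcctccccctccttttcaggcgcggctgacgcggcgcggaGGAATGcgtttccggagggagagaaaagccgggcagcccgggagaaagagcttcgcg

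The *Zyx* window (chr6:42349578-42349877, plus strand) held neither motif. The *Vcl* window (chr14:20929148-20929447, plus strand) held both, a CArG box beginning 227 bases and a GGAATG beginning 143 bases before the start. The *Flna* window (chrX:74246485-74246784, minus strand) held a CATTCC whose first base lies 146 bases before the start, and the *Itgb1* window (chr8:128685404-128685703, plus strand) a GGAATG 7 bases before it. The motifs did not overlap each other in any of these windows. The windows of *Actn1*, *Tln1* and *Itgav*, which also fell, held neither motif and are not shown. Over the 30 adhesion genes with a window in the RefSeq table, the CArG box was found in 4 (*Vcl*, *Fermt2*, *Rsu1* and *Itgb6*), against 1.81% of the 27025 genes with such a window. Of these 4 only *Vcl* fell, while *Fermt2* and *Rsu1* did not pass the test and *Itgb6* was not tested. The TEAD core was found in 5 of the 30 (*Vcl*, *Flna*, *Itgb1*, *Actn4* and *Itga10*), a share close to the 16.58% of the 27025 genes. The matches describe letters, and whether a factor binds there was not measured. No window was at hand for *Parva*, *Ptk2*, *Pxn*, *Tln2*, *Itga6*, *Itga7*, *Itgb2*, *Itgb3* and *Itgb4*.

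The RGD-binding α subunits *Itgav*, *Itga5* and *Itga8* were lower in every OSKA + 4OHT well than in any OSKA − 4OHT well, a separation seen in 10.0% of all tested genes. *Itga2b*, the αIIb chain of platelets, which also binds RGD but is not among the 39 genes, overlapped at 0.282–3.74 and 0–2.40 TPM. *Itgav*, which encodes the αv chain of the vitronectin and fibronectin receptors (chromosome 2, 83724397 to 83806916, plus strand, GRCm38), had 136, 131 and 120 TPM in the wells without 4OHT, listed as replicates 1, 2 and 3 here and throughout, and 76.3, 67.7 and 61.0 TPM in those with 4OHT. Its mean fell from 129 ± 8.32 to 68.3 ± 7.71 TPM (SD, n = 3 each), which is 47.0% lower, with a log2 fold change of -0.92 (SE 0.14, 95% confidence interval -1.25 to -0.58, limma-trend adjusted p = 0.0195). *Itga5*, the α chain of the classical fibronectin receptor, was at 49.0, 34.6 and 60.2 TPM without and at 26.6, 28.9 and 23.0 TPM with 4OHT. *Itga8*, another RGD-binding chain, was at 2.99, 3.30 and 3.77 TPM without and 2.10, 1.67 and 1.21 TPM with it. *Itga5* and *Itga8* had log2 fold changes of -0.83 and -0.85 and did not pass the test (adjusted p = 0.107 and 0.231 in limma-trend), so *Itgav* was the only one of these 3 that fell by the rule used here.

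*Itgb1*, the β chain shared by most integrins of fibroblasts (chromosome 8, 128685654 to 128733200, plus strand), was the most abundant subunit in every well. Its level was 858, 792 and 666 TPM in the OSKA − 4OHT wells and 490, 378 and 449 TPM in the OSKA + 4OHT wells, so the groups did not overlap. The mean fell from 772 ± 97.3 to 439 ± 56.9 TPM (SD, n = 3 each), or by 43.2%, with a log2 fold change of -0.81 (SE 0.147, interval -1.17 to -0.46, limma-trend adjusted p = 0.0321). *Itgb5*, a partner of αv, was at 192, 290 and 208 TPM without and 160, 128 and 107 TPM with 4OHT. Its groups did not overlap either, but the wells spread more and it did not pass the test (log2 fold change -0.80, adjusted p = 0.0961). *Itgb3*, the other well-known partner of αv, had nearly the same level in both groups, 6.54–7.92 TPM and 6.76–7.58 TPM, and the interval of its log2 fold change ran from -0.50 to 0.49.

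Whether *Itgav* and *Itgb1* passed the test depended on single wells and on the settings. With all 6 wells, *Itgb1* had an adjusted p of 0.0557 without the filter on low genes, 0.0540 after quantile normalization and 0.0899 without the variance trend of limma, and *Itgav* had 0.0524 without the trend. The adjusted p of *Itgb1* was between 0.0589 and 0.115 whichever well was left out. That of *Itgav* was 0.0590 without OSKA − 4OHT replicate 1, 0.0649 without OSKA − 4OHT replicate 2 and 0.0699 without OSKA + 4OHT replicate 2, and it was under 0.05 in the other 3 fits. In these limma-trend fits the log2 fold change stayed between -0.998 and -0.837 for *Itgav* and between -0.917 and -0.71 for *Itgb1*.

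Other subunits had positive estimates, and none of them passed the test. *Itga4*, whose product binds fibronectin and VCAM1, was at 49.2, 46.2 and 47.2 TPM in OSKA − 4OHT wells and 73.7, 74.4 and 62.1 TPM in OSKA + 4OHT wells (log2 fold change 0.55, SE 0.139, adjusted p = 0.0776). *Itgb4*, the β chain that pairs with α6 in the hemidesmosomes of epithelia, was at 70.4, 88.6 and 68.9 TPM without and 121, 137 and 93.0 TPM with 4OHT (0.61, SE 0.193, adjusted p = 0.135). *Itga7*, a laminin receptor chain best known from muscle, was at 1.81, 2.45 and 2.24 TPM without and 9.42, 8.26 and 4.89 TPM with 4OHT (1.55, SE 0.332, adjusted p = 0.0512 in limma-trend, 0.0498 with no variance trend and 0.0468 with median-ratio scaling). In each of these 3 genes the lowest well with 4OHT exceeded the highest without it, which was also true of 18.1% of all tested genes. Of the muscle markers, *Myog* and *Myod1* were listed at 0 in all 6 wells, and the sum of the 4 muscle markers was 0.651–10.7 TPM without and 0.529–0.820 TPM with 4OHT.

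*Itga6*, the laminin receptor chain also found on pluripotent stem cells, had the highest level of the α subunits in both groups. It was at 172, 177 and 163 TPM without and 167, 152 and 125 TPM with 4OHT, and the groups overlapped (log2 fold change -0.21, interval -0.56 to 0.13). *Itga3*, a further laminin receptor chain, spread widely from 15.5 to 27.1 TPM and from 18.3 to 37.5 TPM (0.44, interval -0.36 to 1.25).

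Of the collagen receptor chains only *Itga1* and *Itga11* reached the test. *Itga11*, a collagen receptor chain of fibroblasts, was at 1.95, 2.57 and 2.67 TPM in OSKA − 4OHT wells and at 0.0842, 0.0816 and 0.134 TPM in OSKA + 4OHT wells. The mean was 95.8% lower with 4OHT, the largest relative difference among the 39 genes, and its log2 fold change of -2.26 (SE 0.555) did not pass the test at an adjusted p of 0.0715. The gene reached the mean of 1 TPM needed for the test only through the OSKA − 4OHT wells, and its log2 fold change depends on the value added before the logarithm, at -3.64 with 0.1 and -1.06 with 2 in place of 0.5. It was called lower when the filter on low genes was dropped (adjusted p = 0.0445), when the variance was not modelled as a trend (0.00833), and without OSKA − 4OHT replicate 3 (0.0479) or OSKA + 4OHT replicate 3 (0.0470). *Itga1* was at 5.13–7.46 and 4.07–6.39 TPM (log2 fold change -0.34, adjusted p = 0.547).

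The remaining subunits were low or uneven. *Itga9* was at 0.377 and 0.434 TPM in OSKA − 4OHT replicates 1 and 2 but at 4.98 TPM in replicate 3, against 0.982–1.39 TPM with 4OHT. *Itgb2*, the β chain of leukocytes, was at 9.08 TPM in OSKA − 4OHT replicate 2 and at 0.744–2.46 TPM in the other 5 wells. Its partner *Itgam* was at 4.51–6.21 TPM in all wells, although 66.34% of the 50-base words of its transcripts also occur in other genes. The 6 leukocyte markers added up to 119.6–151.8 TPM without and 76.8–87.0 TPM with 4OHT. Most of that sum was *Lyz2*, which fell from 90.1–101 to 46.5–60.7 TPM and shares 15.39% of its words with other genes. Of the 6 markers 5 had negative estimates, *Cd68* being the exception, and *Lyz2* alone passed the test. *Itgb8*, a partner of αv, was at 0.860–1.38 and 1.28–2.37 TPM (log2 fold change 0.43). *Itga2*, *Itga10*, *Itgb6* and *Itgb7* did not reach a mean of 1 TPM and were not tested. Their highest single values were 1.74, 0.937, 0.835 and 1.57 TPM, and *Itgb6* and *Itgb7* were listed at 0 in some wells.

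**Figure D2:**
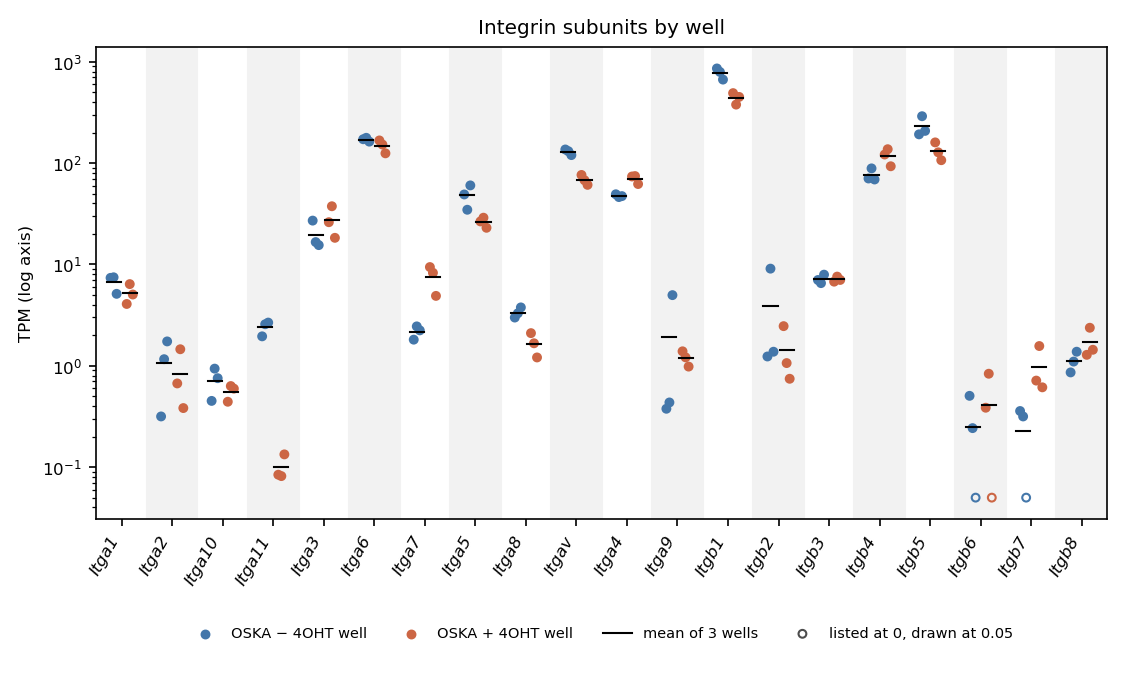
TPM (log axis) of the 20 integrin subunits in each well, with a black line at the mean of 3 wells and open points for values listed at 0, drawn at 0.05. *Itgb1* tops every well and is lower in each OSKA + 4OHT well (378–490 TPM) than in each OSKA − 4OHT well (666–858 TPM), as is *Itgav* (61.0–76.3 against 120–136 TPM), while *Itga6* overlaps.

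The make-up of the integrin mRNA differed between the groups and is given here as shares per well, without a test. The 12 α subunits added up to 424–449 TPM in OSKA − 4OHT wells and 302–388 TPM in OSKA + 4OHT wells, and the 8 β subunits to 954–1188 and 656–783 TPM. *Itga6* held the first place among the α subunits in both groups, with 38.1–41.9% of the α sum without and 40.0–43.1% with 4OHT. *Itgav* held the second place without 4OHT at 28.1–30.9% of the α sum, and its share was 17.8–20.2% with it. The share of *Itga4* was 10.9–11.1% without and 19.0–20.5% with 4OHT, so *Itgav* and *Itga4* came to nearly equal levels in the OSKA + 4OHT wells. Their ratio was 2.71 ± 0.155 without and 0.976 ± 0.0632 with 4OHT (SD, n = 3 each), a pair chosen after its values were seen.

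Among the β subunits, *Itgb1* took 66.7–75.9% of the sum without and 57.6–68.2% with 4OHT, ranges that overlap. The share of *Itgb4* was 6.23–7.46% without and 14.1–20.9% with 4OHT, and the ratio of *Itgb1* to *Itgb4* was 10.3 ± 1.70 and 3.87 ± 1.05 (SD, n = 3 each, also chosen after the values were seen). The epithelial marker sum named above was higher in the same wells, and its part in the larger share of *Itgb4* was not tested. The share of *Itgb5* overlapped between the groups at 17.0–24.4% and 16.2–20.4%.

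**Figure D3:**
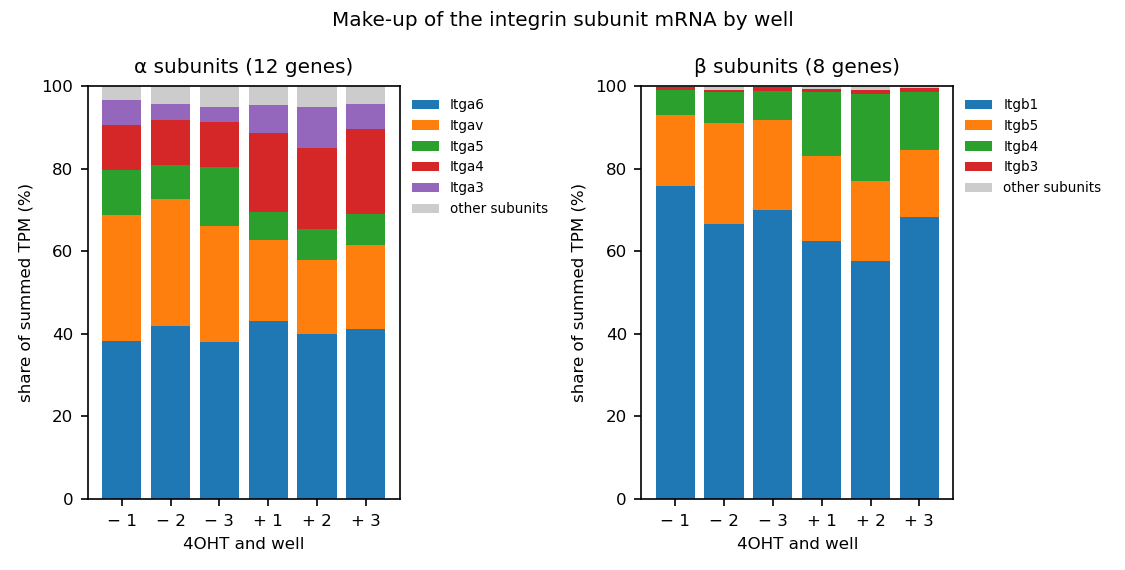
Share (%) of the summed TPM of the 12 α subunits (left) and the 8 β subunits (right) taken by each subunit in each of the 6 wells, OSKA − 4OHT first. From the wells without to those with 4OHT, *Itga4* goes from 10.9–11.1% to 19.0–20.5% and *Itgav* from 28.1–30.9% to 17.8–20.2% of the α sum, and *Itgb4* from 6.23–7.46% to 14.1–20.9% of the β sum.

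Of the 8 proteins that link integrin tails to actin, 4 were lower with 4OHT, against 1.97% of all tested genes, and all 8 had negative estimates, as did 6253 of the 15382 tested genes. *Vcl*, which encodes vinculin, the protein that reinforces adhesions under load (chromosome 14, 20929398 to 21033676, plus strand), was at 99.2, 98.1 and 86.3 TPM in OSKA − 4OHT wells and 47.2, 45.0 and 42.4 TPM in OSKA + 4OHT wells. The mean fell from 94.6 ± 7.16 to 44.9 ± 2.40 TPM (SD, n = 3 each), 52.6% lower (log2 fold change -1.07, SE 0.133, interval -1.39 to -0.75, limma-trend adjusted p = 0.0113). It was the 1 gene of the 8 that passed the test in each of the 6 fits that left out a well, with adjusted p-values of 0.0286–0.0454. *Tln1*, the widely expressed talin (chromosome 4, 43531519 to 43562691, minus strand), was at 84.3, 97.6 and 108 TPM without and 52.9, 54.1 and 58.9 TPM with 4OHT. Its mean was 42.7% lower (log2 fold change -0.79, SE 0.146, limma-trend adjusted p = 0.0341). The second talin gene, *Tln2*, was far less abundant and overlapped between the groups, at 6.48–14.6 and 9.22–10.4 TPM.

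Both α-actinins of non-muscle cells were abundant, and the test separated only *Actn1*. *Actn1* (chromosome 12, 80167547 to 80260371, minus strand) was at 174, 184 and 196 TPM without and 108, 102 and 93.4 TPM with 4OHT, a fall of the mean by 45.1% (log2 fold change -0.86, SE 0.121, interval -1.15 to -0.57, limma-trend adjusted p = 0.0154). *Actn4* was at 544, 633 and 666 TPM without and 594, 575 and 344 TPM with 4OHT, so that the OSKA + 4OHT wells 1 and 2 lay among the controls and well 3 stood below them (-0.32, interval -0.87 to 0.23, adjusted p = 0.486). *Flna*, encoding filamin A, the actin cross-linker that also binds β tails (chromosome X, 74223461 to 74249820, minus strand), had the highest mean level of the adaptors without 4OHT and the second highest, after *Actn4*, with it. It was at 639, 1015 and 954 TPM without and 428, 488 and 398 TPM with 4OHT, 49.7% lower on average (log2 fold change -0.97, SE 0.197, limma-trend adjusted p = 0.0451). The tensins *Tns3* and *Tns1*, which bind β tails in more mature adhesions, did not pass the test. *Tns3* was at 49.8–71.2 and 32.6–38.0 TPM without overlap (-0.78, adjusted p = 0.0621), and *Tns1* at 117–158 and 59.8–138 TPM (-0.48, adjusted p = 0.445).

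*Zyx*, encoding zyxin, which marks adhesions and stress fibres under tension (chromosome 6, 42349630 to 42360213, plus strand), showed the largest fall of the adaptors. It was at 285, 399 and 315 TPM in OSKA − 4OHT wells and at 119, 126 and 111 TPM in OSKA + 4OHT wells. The mean fell from 332.5 ± 59.1 to 118.6 ± 7.52 TPM (SD, n = 3 each), 64.3% lower, with a log2 fold change of -1.47 (SE 0.155, interval -1.84 to -1.10, limma-trend adjusted p = 0.00685). *Vasp*, whose product is recruited by zyxin and lengthens actin filaments, was at 48.8, 44.7 and 39 TPM without and 46.1, 81.0 and 71.0 TPM with 4OHT (0.54, interval -0.04 to 1.12, adjusted p = 0.261). The ratio of *Zyx* to *Vasp*, a pair chosen after its values were seen, was 5.83–8.91 without and 1.56–2.58 with 4OHT.

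Of the ILK complex 1 of 4 genes fell, against 1.97% of all tested genes. *Parva*, encoding α-parvin, its actin-binding member (chromosome 7, 112427505 to 112591692, plus strand), was at 168, 160 and 171 TPM without and 87.9, 108 and 96.5 TPM with 4OHT, 41.5% lower (log2 fold change -0.77, SE 0.126, interval -1.08 to -0.47, limma-trend adjusted p = 0.0243). *Ilk*, the pseudokinase at its centre, was at 120, 125 and 156 TPM without and 119, 145 and 177 TPM with 4OHT, and the interval of its log2 fold change ran from -0.33 to 0.59. *Lims1*, encoding PINCH1, was at 55.7–68.3 and 41.2–54.0 TPM without overlap (-0.36, adjusted p = 0.281), and *Rsu1*, which binds PINCH1, at 88.3–117 and 49.6–89.6 TPM (-0.48, adjusted p = 0.336). The ratio of *Parva* to *Ilk* was 1.10–1.41 without and 0.545–0.741 with 4OHT, again a pair chosen after the values were seen. *Fermt2*, encoding kindlin-2, the integrin activator of fibroblasts, was at 180, 152 and 75.1 TPM without and 154, 154 and 133 TPM with 4OHT, with no separation of the groups.

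None of the 4 signalling proteins passed the test, and in 3 of them a single well or a pair of wells stood apart. *Ptk2*, encoding FAK, was at 135, 38.3 and 20.9 TPM without and 29.7, 29.1 and 48.3 TPM with 4OHT, and its estimate of -0.45 turned to 0.29 without OSKA − 4OHT replicate 1. *Src* was at 79.7, 79.5 and 39.1 TPM without and 56.3, 47.3 and 133 TPM with 4OHT. *Pxn*, encoding paxillin, was at 16.2, 17.3 and 41.4 TPM without and 31.4, 41.5 and 45.5 TPM with 4OHT (log2 fold change 0.77, interval -0.16 to 1.70). *Bcar1*, encoding p130CAS, was even between wells, at 28.9–35.1 and 25.7–30.2 TPM (-0.25, interval -0.64 to 0.14). The annotation holds 15 transcripts of 259 to 4678 bases for *Ptk2*, 14 of 361 to 3761 bases for *Pxn* and 8 of 222 to 3906 bases for *Src*. A TPM value is divided by transcript length, and the part of this in the uneven values was not tested.

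**Figure D4:**
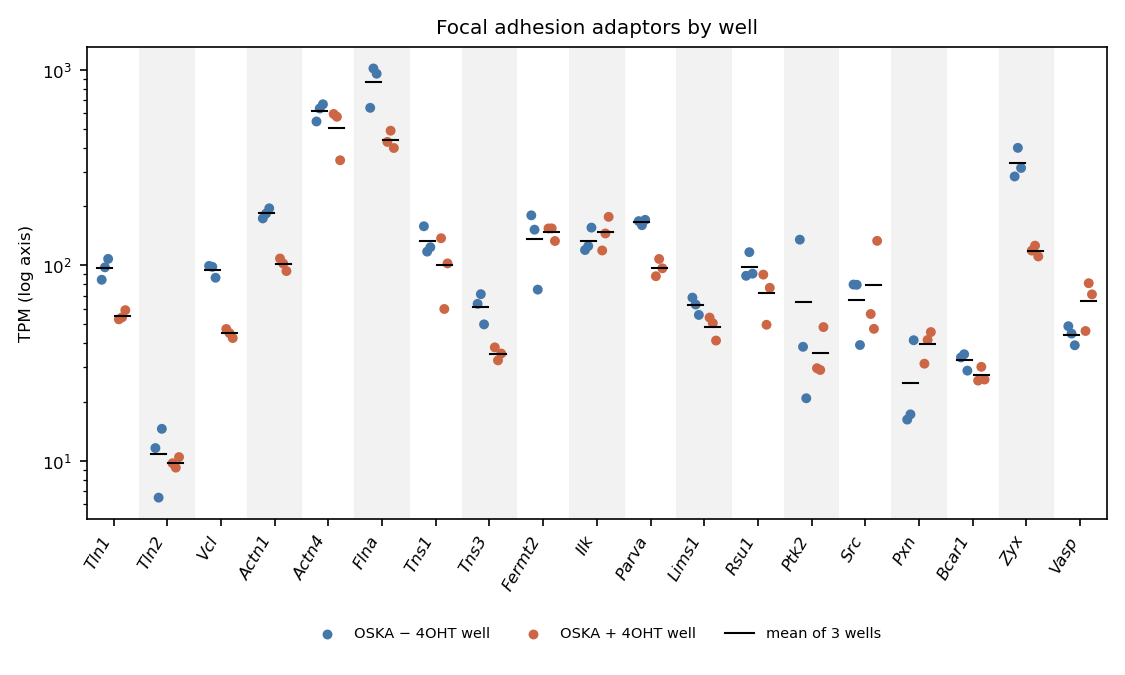
TPM (log axis) of the 19 focal adhesion adaptors in each well, with a black line at the mean of 3 wells. *Zyx* (285–399 against 111–126 TPM), *Vcl*, *Actn1*, *Flna*, *Parva* and *Tln1* show no overlap between the groups, whereas the wells of *Ptk2*, *Src* and *Pxn* are widely spread.

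The values of every OSKA + 4OHT well were below those of every OSKA − 4OHT well in 8 of the 19 adaptors and in 6 of the 16 tested integrin subunits, against 10.0% of all tested genes. The reverse was seen in 0 adaptors and 3 integrin subunits, against 18.1% of all tested genes. *Itga11*, among the 6 lower subunits, reached the level needed for the test only through the OSKA − 4OHT wells. How firmly the falls of the adaptors were called differed. Without the variance trend, the adjusted p was 0.0511 for *Actn1*, 0.0680 for *Parva*, 0.0739 for *Tln1* and 0.0991 for *Flna*, so that *Zyx* and *Vcl* were left. The adjusted p of *Zyx* passed 0.05 when OSKA + 4OHT replicate 1 was left out (0.0517), and that of *Actn1* when OSKA − 4OHT replicate 2 (0.0517) or OSKA + 4OHT replicate 2 (0.0568) was left out. *Tln1* and *Flna* passed the test only in the fit without OSKA − 4OHT replicate 1, at 0.0455 and 0.0320, and *Parva* only in the fit without OSKA + 4OHT replicate 2, at 0.0438. Their highest adjusted p-values were 0.101, 0.168 and 0.0649. Every one of these fits gave a negative log2 fold change for these 5 genes.

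A wider list of 54 adhesion genes holds paralogs of the adaptors, further signalling proteins and LIM and actin-associated proteins. Of its 48 tested genes 7 fell (14.6%), namely *Nedd9*, *Flnc*, *Tgfb1i1*, *Lpp*, *Cav1*, *Fblim1* and *Pdlim1*, and 1 rose (2.08%), against 1.97% and 3.52% of all tested genes, and its median log2 fold change was -0.094, against 0.144. *Cav1*, *Fblim1* and *Pdlim1* are named to complete the count, after their values were seen. *Nedd9*, a relative of *Bcar1*, fell the most, from 36.0, 38.4 and 40.0 TPM to 9.92, 10.2 and 7.70 TPM (log2 fold change -1.99, SE 0.181, limma-trend adjusted p = 0.00464), and passed the test whichever well was left out. *Flnc*, a paralog of *Flna*, fell from 38.3, 33.6 and 29.6 TPM to 14.4, 12.2 and 13.6 TPM (-1.30, SE 0.176, adjusted p = 0.0140), and without OSKA − 4OHT replicate 2, OSKA + 4OHT replicate 1 or OSKA + 4OHT replicate 2 its adjusted p was 0.0565, 0.0586 and 0.0586. *Tgfb1i1*, encoding the paxillin relative HIC-5, fell from 38.6, 47.9 and 46.2 TPM to 18.1, 19.5 and 22.8 TPM (-1.12, adjusted p = 0.0213), with adjusted p-values of 0.0389–0.0792 over the 6 fits without a well and 2 of them under 0.05.

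The 1 gene of the list that rose belongs to the *Vasp* family. *Enah*, encoding MENA, was at 79.9, 56.6 and 72.5 TPM without and 157, 148 and 137 TPM with 4OHT (log2 fold change 1.09, SE 0.165, adjusted p = 0.0191 in limma-trend, 0.0417–0.0844 without a well and under 0.05 in 2 of 6 fits). The third member, *Evl*, was at 10.1–12.2 and 17.2–22.3 TPM without overlap and did not pass the test (0.85, adjusted p = 0.0593). Also chosen after the values were seen, *Zyx* was 3.56–7.04 times the level of *Enah* without and 0.756–0.853 times with 4OHT. *Lpp*, a relative of *Zyx*, fell from 35.1, 35.6 and 34.2 TPM to 19.6, 20.1 and 16.2 TPM (-0.90, adjusted p = 0.0317 in limma-trend, 0.0481–0.0836 without a well and under 0.05 in 1 of 6 fits). The paralogs *Tns2* and *Parvb* did not pass the test. *Tns2* had an estimate of 0.00, and *Parvb* was at 7.76–20.7 and 13.4–20.4 TPM.

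The matrix and cell surface ligands of integrins moved in both directions. Of 16 tested ligand genes 4 fell (25%) and 1 rose (6.25%), against 1.97% and 3.52% of all tested genes, and their median log2 fold change was -0.039, against 0.144. *Vcam1*, a counter-receptor for integrins with the *Itga4* chain, fell from 315, 452 and 438 TPM to 81.7, 86.3 and 88.3 TPM (log2 fold change -2.21, SE 0.166, limma-trend adjusted p = 0.00366). *Tnc*, encoding tenascin C, fell from 264, 287 and 239 TPM to 86.5, 92.0 and 74.0 TPM (-1.64, SE 0.139, adjusted p = 0.00376), and both passed the test whichever well was left out. *Fn1*, encoding fibronectin, the ligand of the *Itga5* and *Itgav* chains, was picked out after its values were seen and fell by 46.8% (-0.91, adjusted p = 0.0128, 0.0468–0.0726 without a well and under 0.05 in 1 of 6 fits).

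*Lama1*, a laminin α chain of early embryonic basement membranes, was the ligand gene that rose, from 4.61, 4.24 and 4.39 TPM to 24.3, 20.5 and 15.6 TPM (log2 fold change 2.05, SE 0.229, limma-trend adjusted p = 0.00822). Without OSKA + 4OHT replicate 1 or 2 its adjusted p was 0.0544 and 0.0585. *Lama2*, another laminin α chain, named after its values were seen, fell from 18.0, 21.7 and 17.4 TPM to 8.35, 8.50 and 7.77 TPM (-1.16, SE 0.183, limma-trend adjusted p = 0.0222), and its adjusted p was 0.0589–0.0793 in the 6 fits without a well. The epithelial and pluripotency marker sums were higher in the OSKA + 4OHT wells, and their part in the rise of *Lama1* was not tested. *Spp1* and *Vtn*, both ligands of αv integrins and named after their values were seen, differed from each other in level. *Spp1* was at 673–850 and 703–922 TPM and did not pass the test (0.11, adjusted p = 0.711), and *Vtn* was listed at 0 in every well.

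**Figure D5:**
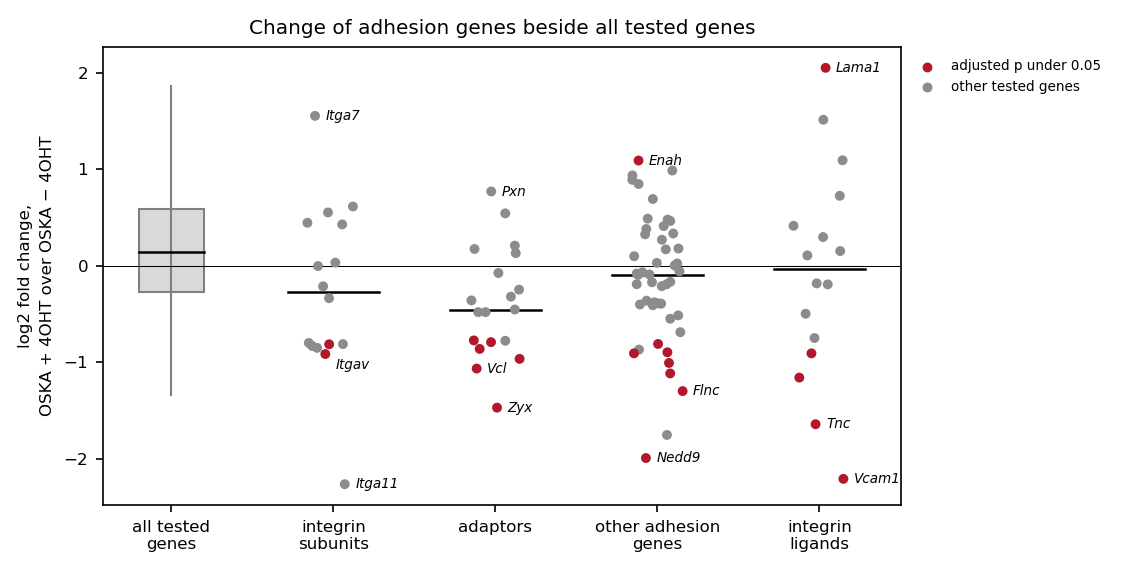
Log2 fold change (OSKA + 4OHT over OSKA − 4OHT) of the tested genes of 4 adhesion lists, each point a gene, red where the adjusted p was under 0.05, with a black line at the median of the list. The box spans the 25th to the 75th percentile of all tested genes and its line the 5th to the 95th, and the list medians (-0.276, -0.455, -0.094 and -0.039) lie below the median of all tested genes (0.144).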

How the data were processed

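RNA of 6 wells (3 per group) was sequenced from polyA libraries. The authors trimmed the reads with Trim Galore, quantified them with Salmon and deposited TPM per gene and well. Versions, transcriptome build and annotation release are not given in the sources used here. The deposited table also holds the authors' own comparison: log2 columns (fold change and average level), a score (the F statistic) and an unadjusted p-value, none of which was used.

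Symbols and positions were looked up by Ensembl identifier in GENCODE M21 (GRCm38), which held 54097 of the 54331 genes and need not be the authors' release. TPM keeps no depth, so count tests were not used: limma-trend (limma 3.58.1, R 4.3.3) was fitted without a block to log2(TPM + 0.5) of the 15382 genes with a mean of 1 TPM or more, tested first on simulated data. Summaries, promoter windows and figures used Python 3.11.15, pandas 2.3.3, numpy 2.4.6 and matplotlib 3.10.9. The members and lists were chosen with earlier results of these data known.

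All 39 members are named. Values for every well are given for members that passed the test, for the 5 most abundant of each class, for those beyond 2-fold, and for some others. Of each other list the text names up to 2 called genes per direction and paralogs of members, and other genes are marked, apart from cell type markers, which were named after their values were seen. A result for 1 gene of the wider adhesion list is not reported here. Alternatives were other filters, pseudocounts (0.1 and 2), scalings, no variance trend, the replicate number as a block, and leaving out each well. Words of 50 bases shared with other genes made up 30.57% of *Itga10*, 8.02% of *Ilk*, 7.25% of *Itgb5*, 5.31% of *Itga6* and 3.27% of *Itga1*, whose reads Salmon could have split, and under 2% of each other member. Library preparation was stranded.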

Additional observations from a re-analysis of the deposited data

How the results depend on the processing

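The directions of the 8 falls were the same under all alternatives run, and the calls were not. Deviations from the group mean correlated at 0.024, 0.034 and 0.084 between wells with the same replicate number. Between wells with different numbers the correlations ran from -0.062 to 0.033. These few values do not decide whether the numbers pair the wells. With the replicate block, 31 genes were higher and 16 lower over all genes, against 542 and 303. The block left 0 integrin subunits, 0 adaptors and 0 other adhesion genes lower, 0 other adhesion genes and 0 ligands higher and 2 ligands lower, and the adjusted p was 0.0574 for *Zyx*, 0.0770 for *Vcl*, 0.0857 for *Itgav* and 0.105 for *Itgb1*.

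Without the variance trend, 435 genes were higher and 212 lower over all genes, and 2 adaptors (*Zyx* and *Vcl*), 3 other adhesion genes and 1 integrin subunit (*Itga11*) were lower and 1 subunit (*Itga7*) was higher. With median-ratio scaling, 440 genes were higher and 502 lower over all genes, 1 subunit (*Itga7*) was higher, *Itgb5* and *Tns3* were lower as well, and the medians were -0.418 for integrin subunits and -0.597 for adaptors. With quantile normalization, 428 genes were higher and 434 lower over all genes, 1 subunit was lower and the medians were -0.55 and -0.577. These scalings brought the median of all genes to 0.002 and -0.005. A minimum mean of 5 TPM gave 2 higher other adhesion genes, with 534 genes higher and 325 lower among the 11035 tested. Without the filter, *Itgb1* and *Flna* had adjusted p-values of 0.0557 and 0.0723.

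Leaving out 1 well gave 137–357 genes higher and 68–148 lower over all genes, 0–2 integrin subunits and 2–5 adaptors lower, 0–1 other adhesion genes higher and 1–5 lower, and 0–1 ligands higher and 2–3 lower. The median of the integrin subunits was then -0.374 to -0.214 and that of the adaptors -0.539 to -0.33. The cause of these differences was not tested.

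The estimates of 7 members that did not pass the test changed sign. That of *Itga9* (0.03) was -0.105 with a pseudocount of 2, -0.581 after quantile normalization and -0.112 after median-ratio scaling, and that of *Ilk* was -0.013 after median-ratio scaling. Over the fits that left out a well, the estimates ran from -0.425 to 0.897 for *Itga9*, -0.063 to 0.066 for *Itgb3*, -0.394 to 0.161 for *Tln2*, -0.171 to 0.457 for *Fermt2*, -0.012 to 0.273 for *Ilk*, -1.042 to 0.291 for *Ptk2* and -0.281 to 0.462 for *Src*.

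The depth is unknown, so the counting error of low genes such as *Itga11* cannot be given, and a gene that did not pass the test is not shown to be unchanged.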
